A study of Mus musculus with 30 samples.

Results

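RNA-seq libraries of large wild-type osteoclasts from 20-month-old mice were compared with those from 6-month-old mice. The comparison takes 6 of the 30 libraries of the series, 3 per age, chosen by their titles. All 6 came from bone marrow-derived macrophages of wild-type C57BL/6J mice, differentiated on bone slices and harvested once big multinucleated cells had appeared. M-CSF was given at 25 ng/ml and RANKL at 100 ng/ml. The 20-month group holds replicates 1, 3 and 4, and the 6-month group holds replicates 1, 2 and 4. Wild-type cultures of both ages harvested at 2 days, 3 libraries each, served to ask whether an age difference depends on the culture stage. The series also holds 1-month wild-type and 1- and 6-month Terc-/- large-cell groups, and its design text asks whether osteoclasts on bone slices differ in gene expression with age or without Terc. The 20-month age has no Terc-/- group. The labels do not say whether replicates are separate animals or separate cultures, and p-values here reflect only how far these samples scatter, which may be technical scatter. Neither sex nor a batch is given, and age cannot be told apart from any batch that followed it.

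Osteoclasts are the cells that resorb bone. M-CSF keeps their macrophage precursors alive and RANKL drives them to fuse, so that a mature osteoclast gains nuclei by fusion and not by division. The mature cell seals itself to bone, acidifies the space beneath it with a vacuolar proton pump and secretes cathepsin K and matrix metalloproteinases into it. Such a secretory cell depends on chaperones of the endoplasmic reticulum (ER), which fold and disulfide-bond new secretory proteins. When unfolded protein builds up there, the sensors PERK, IRE1 and ATF6 start the unfolded protein response, which raises ER chaperones and, through the translation factor eIF2alpha and the transcription factor ATF4, genes of amino acid supply.

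The deposited values were transcripts per 1000000 (TPM), a level per transcript length with the same total in each library. Values of the 6 libraries are given below as deposited, in the order replicates 1, 3 and 4 at 20 months and 1, 2 and 4 at 6 months. Differences are log2 values of 20 minus 6 months after scaling between libraries, with standard errors (SE), from a limma model of 12614 genes with one variance per group and n = 3 per age. A gene was called at a Benjamini-Hochberg adjusted p below 0.05 over all genes tested. Differences on the log2(scaled TPM + 1) scale understate changes of low genes. Read depth is unknown, since no counts were used. In bulk cultures fewer cells of a type and less RNA per cell cannot be told apart.

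The groups were not equally even. The 20-month libraries correlated with each other at a mean of 0.987 to 0.988, and 6-month replicates 1, 2 and 4 with their own group at 0.932, 0.909 and 0.952. The variance of the 6-month group was 12.6 times that of the 20-month group, and its replicate 2 had a scaling factor of 0.674 against 1.06 to 1.20 in the other 5. Mitochondrially encoded genes held 3.43% of TPM in that library against 8.70 to 10.2% in the other 5. Osteoclast genes were high in all 6 libraries (tartrate-resistant acid phosphatase, Acp5, at 4553 to 12058 TPM), as were macrophage markers (summed over 20 genes, 19278 to 27706 TPM at 20 months and 24197 to 32255 at 6 months). All 6 carried Y-linked transcripts (Eif2s3y 50.5 to 64.2 TPM) and almost no Xist (0.0226, 0.0127 and 0 and 0.0133, 0 and 0.00299 TPM). Terc, the telomerase RNA that oligo-dT selection may miss, was listed at 0 in all but 20-month replicate 3 (0.516 TPM) and 6-month replicate 4 (0.341 TPM).

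Between the ages, 252 of 12614 genes were called, 2% of those tested: 94 higher at 20 months (0.745%) and 158 lower (1.25%). The median log2 difference over all genes tested was 0.00. Of the 252, 240 had groups that did not overlap, both as deposited and after scaling. Among the rises were ER folding enzymes, amino acid stress genes and 2 collagen VI chains, and among the falls genes of cell division and the chemokines Ccl2 and Ccl12. With TPM as deposited the split turned to 77 higher and 29 lower, the median of all genes tested being 0.27. The number of calls rested on single 6-month libraries: 3 genes were called without replicate 4 (887 with an unadjusted p below 0.05), 134 without replicate 1, and 1346 (10.7%) without replicate 2, of which 549 (4.35%) were higher and 797 (6.32%) lower, against 2471 with an unadjusted p below 0.05 in all 6. Leaving out each 20-month library in turn gave 204 to 326. Every one of the 252 kept its sign in all alternatives, which was nearly given, since they were chosen on the same libraries.

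ER chaperones and folding enzymes held more called rises than any other list. This list of 23 genes was drawn up after the values had been seen, so its counts describe and do not test. Of its members 12 were called higher and none lower, all 23 log2 differences were positive, and the median was 0.84. In 18 of 23 the groups did not overlap, where 13.6% of all genes tested were higher without overlap. Their summed level was 15161, 13734 and 14657 TPM at 20 months and 6103, 4966 and 6128 TPM at 6 months. All 3 of the 20-month libraries thus lay above every 6-month one. The median differences of collagens (0.93) and of proteoglycan and matricellular genes (1.01) were larger than that of this list.

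Promoters of the called ER genes are shown because several carry the ER stress response element, the letters CCAAT and, after any 9 bases, CCACG, through which ATF6 and its cofactor NF-Y are known to act. The sequences are the 250 bases before the annotated start from RefSeq (GRCm38.p6, 5′ to 3′ on the gene's strand), with the element in capitals where it reads on that strand or its complement.
Hspa5, chr2:34771840-34772089, plus strand: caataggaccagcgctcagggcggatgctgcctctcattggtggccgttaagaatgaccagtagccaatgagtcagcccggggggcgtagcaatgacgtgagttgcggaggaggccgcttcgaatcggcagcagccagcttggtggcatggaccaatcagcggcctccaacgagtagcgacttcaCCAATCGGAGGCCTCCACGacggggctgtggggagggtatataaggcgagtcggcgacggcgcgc
Hsp90b1, chr10:86705445-86705694, minus strand: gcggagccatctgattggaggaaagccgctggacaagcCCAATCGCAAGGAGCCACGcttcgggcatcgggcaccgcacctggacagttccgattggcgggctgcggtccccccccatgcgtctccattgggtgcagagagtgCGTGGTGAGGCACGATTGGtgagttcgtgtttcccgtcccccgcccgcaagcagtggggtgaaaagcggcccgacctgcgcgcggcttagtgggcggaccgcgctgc
Creld2, chr15:88819396-88819645, plus strand: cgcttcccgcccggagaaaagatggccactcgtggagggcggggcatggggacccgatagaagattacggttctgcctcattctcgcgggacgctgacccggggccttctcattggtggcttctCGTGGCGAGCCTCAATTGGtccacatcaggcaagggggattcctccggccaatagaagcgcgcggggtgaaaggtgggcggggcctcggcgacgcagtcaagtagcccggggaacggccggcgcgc
Dnajc3, chr14:118937682-118937931, plus strand: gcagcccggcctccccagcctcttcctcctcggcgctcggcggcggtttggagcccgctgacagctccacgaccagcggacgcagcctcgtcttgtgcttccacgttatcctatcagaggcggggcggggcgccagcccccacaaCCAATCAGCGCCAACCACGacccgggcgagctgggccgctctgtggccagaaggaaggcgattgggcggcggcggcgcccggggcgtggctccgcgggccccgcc
Pdia6, chr12:17266339-17266588, plus strand: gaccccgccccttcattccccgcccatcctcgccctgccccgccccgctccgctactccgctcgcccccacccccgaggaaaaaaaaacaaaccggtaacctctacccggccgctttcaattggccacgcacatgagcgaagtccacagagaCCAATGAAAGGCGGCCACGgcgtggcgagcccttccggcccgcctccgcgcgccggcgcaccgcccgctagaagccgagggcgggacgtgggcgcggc
The element lay 65 bases before the start in Hspa5, at 212 and 107 bases in Hsp90b1, at 126 in Creld2, 105 in Dnajc3 and 98 in Pdia6, counted from its first base. Searched on both strands, it was found in 37 of 32851 promoters of this length (0.113%), in 7 of the 18 list genes with a promoter in the table and in 5 of the 9 of these that were called. Calr and Canx, which hold it, were not called, and Pdia4, the largest rise of the list, has no match in this window. A match is a description of the letters, not of a bound site.

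The chaperone BiP is encoded by Hspa5 (chr2:34771970-34777547, mm10), binds unfolded chains in the ER and holds the stress sensors inactive. Hspa5 stood at 2397, 2044 and 2362 TPM at 20 months and 663, 444 and 591 TPM at 6 months. The lowest 20-month library was above the highest 6-month one, and the log2 difference was 1.70 ± 0.21 (adjusted p = 5.91e-05). Hsp90b1 (chr10:86690209-86705509), the ER member of the HSP90 family, stood at 2511, 2237 and 2367 against 675, 422 and 647 TPM (1.74 ± 0.19, adjusted p = 1.22e-05). Its groups did not overlap either. The nucleotide exchange factor of BiP, Hyou1 (chr9:44379490-44392369), read 277, 236 and 304 against 81.1, 34.3 and 70.3 TPM, with 6-month replicate 2 the lowest of the 6 (1.89 ± 0.20, adjusted p = 1.08e-05). Pdia4 (chr6:47796141-47813430), a protein disulfide isomerase, read 729, 601 and 730.1 against 138, 54.8 and 144 TPM and had the largest difference of the list (2.41 ± 0.26, adjusted p = 1.08e-05). For Pdia4, Hyou1 and Hsp90b1 the call held in all 24 alternatives, with adjusted p of 3.43e-10 to 0.0373, 1.41e-10 to 0.0373 and 8.79e-11 to 0.0373. Hspa5 lost its call once, without 6-month replicate 4 (adjusted p = 0.101, 1.82e-10 to 0.101 over its alternatives).

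The rest of the list followed the same direction. Ero1l, which reoxidises the disulfide isomerases, stood at 321, 282 and 196 TPM against 60.7, 29.3 and 61.6 (2.11 ± 0.41, adjusted p = 0.00865). Creld2, a folding factor of the ER, stood at 185, 161 and 205 TPM against 37.99, 66.9 and 45.4 (1.57 ± 0.30, adjusted p = 0.00783), with 6-month replicate 2 the highest of its group. Both separated the ages completely. Dnajb9 and Dnajc3, J-domain partners of BiP, had differences of 1.41 ± 0.22 and 1.37 ± 0.18, and the secreted ER factor Manf one of 1.20 ± 0.27. The disulfide isomerases Pdia6 (1.25 ± 0.18), P4hb (0.87 ± 0.19) and Pdia3 (0.70 ± 0.17) were called as well. The calnexin gene Canx (0.82 ± 0.24, adjusted p = 0.0748), the calreticulin gene Calr (0.57 ± 0.21, adjusted p = 0.143) and the cyclophilin Ppib (0.04 ± 0.29, adjusted p = 0.961) were not called. Leaving out 6-month replicate 4 left 3 of the 23 called (13 at an unadjusted p below 0.05), leaving out replicate 1 left 7, and leaving out replicate 2 gave 19. In the last setting 4.35% of all genes tested were called higher.

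Genes of ER-associated degradation, which returns misfolded proteins to the cytosol, were also listed after the values had been seen. Of 17 tested, 3 were called higher and none lower, with a median of 0.13. Herpud1 (chr8:94386438-94395377), which assembles the degradation complex, stood at 135, 107 and 175 against 34.2, 19.7 and 31.96 TPM (1.94 ± 0.31, adjusted p = 0.00147). The complex's scaffold Sel1l stood at 105, 85.4 and 107 against 50.9, 14.2 and 29.3 TPM (1.49 ± 0.27, adjusted p = 0.00467). Its ubiquitin ligase, Syvn1, stood at 43.9, 35.6 and 44.04 against 21.9, 14.6 and 19.9 TPM (0.80 ± 0.19, adjusted p = 0.0247), and its promoter also holds the ER stress response element. Groups of all 3 were apart, whereas the ATPase gene Vcp, which pulls the proteins out, overlapped (-0.32 ± 0.13, adjusted p = 0.191). The 3 calls were lost without 6-month replicate 4 (adjusted p = 0.474, 0.627 and 0.6996), and that of Syvn1 without replicate 1 as well (0.0957). Over all alternatives their adjusted p ran 8.85e-10 to 0.474, 4.69e-06 to 0.627 and 2.02e-06 to 0.6996.

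The sensors and factors of the response moved less. Of 12 tested none was called higher (limma, 5 with an unadjusted p below 0.05) and 1 was called lower, with a median of 0.34. Atf6 stood at 28.004, 29.8 and 30.002 against 23.3, 5.13 and 16.5 TPM (0.85 ± 0.26, adjusted p = 0.0802), the PERK gene Eif2ak3 at 20.7, 24.7 and 22.5 against 20.7, 3.53 and 15.1 (0.74 ± 0.28, adjusted p = 0.148) and the IRE1 gene Ern1 at 19.8, 19.8 and 19.8 against 17.7, 4.17 and 9.74 (0.76 ± 0.30, adjusted p = 0.175). In each the 6-month libraries spread widely, with replicate 2 the lowest. Xbp1, whose mRNA IRE1 splices, had overlapping scaled levels (0.13 ± 0.13, adjusted p = 0.626). TPM per gene do not separate its spliced form. The called gene was Eif2s1, encoding eIF2alpha, at 47.1, 48.1 and 49.5 against 61.8, 47.2 and 71.6 TPM, with groups overlapping as deposited but not when scaled (-0.60 ± 0.13, adjusted p = 0.0191, and 0.6996 without 6-month replicate 4, within 7.08e-05 to 0.6996 over the alternatives). Among 23 genes of ER translocation and glycosylation, Stt3b, a catalytic subunit of oligosaccharyltransferase, was called higher (0.66 ± 0.11, adjusted p = 0.00276, 0.311 without replicate 4, 4.69e-06 to 0.311 over the alternatives), with a list median of -0.01.

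**Figure D1:**
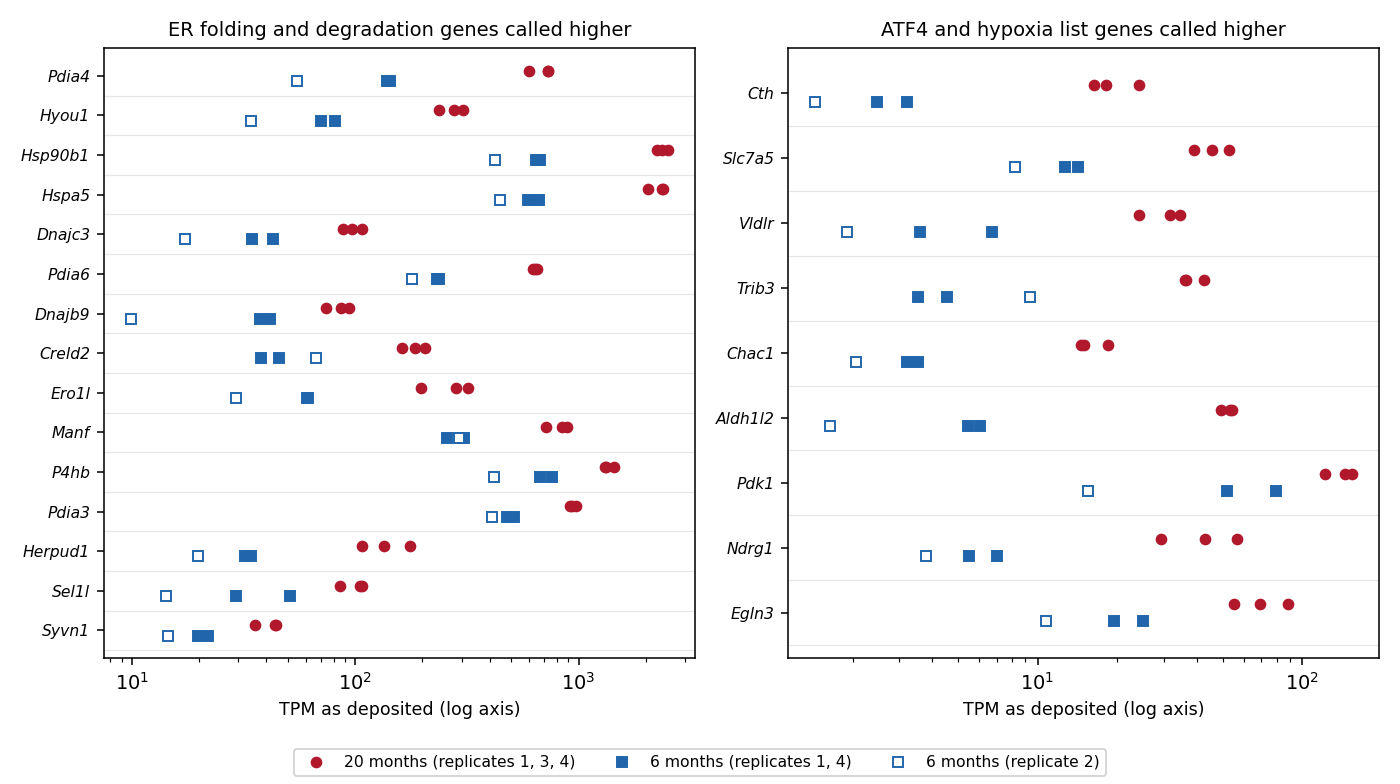
TPM as deposited on log axes for called ER folding and degradation genes (left) and called ATF4 and hypoxia genes (right), one point per library. Red circles are the 3 libraries of 20 months, blue squares those of 6 months with replicate 2 open; in every gene plotted the red points lie to the right of all blue ones.

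Several genes of the ATF4 response and of amino acid synthesis rose. Of 23 tested, 6 were called higher and none lower, with a median of 0.80, and the groups did not overlap in 15 that were higher and in 1, Shmt1, that was lower (13.6% and 8.74% of all genes tested). The sum over the list was 1625, 1415 and 1686 TPM at 20 months and 735, 706 and 813 TPM at 6 months. Aldh1l2 (chr10:83487450-83534140), a mitochondrial folate enzyme, stood at 54.3, 49.4 and 53.4 against 6.07, 1.64 and 5.44 TPM, the largest rise among the genes named (3.17 ± 0.77, adjusted p = 0.0304). Trib3 (chr2:152337422-152344032), a pseudokinase induced by ATF4 and CHOP, stood at 36.5, 36.03 and 42.4 against 3.55, 9.35 and 4.53 TPM (2.30 ± 0.47, adjusted p = 0.0111). Here 6-month replicate 2 was the highest of its group and still below all 20-month libraries. Cth (chr3:157894248-157925077), which makes cysteine from cystathionine, read 18.2, 16.4 and 24.1 against 2.47, 1.44 and 3.21 TPM (2.36 ± 0.39, adjusted p = 0.00219). The amino acid transporter Slc7a5 (chr8:121881150-121907694) read 45.7, 38.96 and 52.7 against 14.2, 8.19 and 12.7 TPM (1.60 ± 0.30, adjusted p = 0.00518).

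Chac1, which degrades glutathione, stood at 15.03, 14.6 and 18.4 TPM against 3.54, 2.06 and 3.21 (1.86 ± 0.41, adjusted p = 0.01803). Vldlr (chr19:27216484-27254231), the very-low-density lipoprotein receptor and a known PERK and ATF4 target, stood at 34.4, 31.7 and 24.1 TPM against 6.71, 1.91 and 3.61 (2.45 ± 0.46, adjusted p = 0.00576). Both rose with no overlap. Atf4 itself had overlapping scaled levels (261, 241 and 249 against 180.4, 148 and 188 TPM, 0.23 ± 0.19, adjusted p = 0.508). The CHOP gene Ddit3 was not called (301, 221 and 322 against 61.6, 160.3 and 71.1 TPM, 1.32 ± 0.41, adjusted p = 0.0859), with 6-month replicate 2 above its group. Phgdh (1.14 ± 0.52, adjusted p = 0.229) and Psat1 (0.80 ± 0.47, adjusted p = 0.35004) of serine synthesis and Asns of asparagine synthesis (0.74 ± 0.34, adjusted p = 0.231) were not called, though their groups did not overlap. Slc7a11, the cystine carrier, overlapped (-0.82 ± 0.67, adjusted p = 0.518). Without 6-month replicate 4 none of the 23 was called (limma, 7 with an unadjusted p below 0.05), without replicate 1 it was 2, and without replicate 2 it was 16. That last fit called 4.35% of all genes tested higher.

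The promoter of Chac1 is shown for its C/EBP-ATF composite element, read here as TGATGNAA on either strand.
Chac1, chr2:119350992-119351241, plus strand: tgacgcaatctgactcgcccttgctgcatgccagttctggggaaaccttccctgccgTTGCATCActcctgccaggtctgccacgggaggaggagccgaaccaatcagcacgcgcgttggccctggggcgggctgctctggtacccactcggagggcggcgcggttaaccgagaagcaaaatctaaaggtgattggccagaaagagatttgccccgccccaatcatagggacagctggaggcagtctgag
The element starts 193 bases before the start and is in 3.45% of all promoters of this length. It was in 6 of 23 list genes with a promoter and in 2 of the 3 of these that were called, Chac1 and Vldlr.

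Some hypoxia genes rose beside glycolytic genes that were not called. Of the 27 genes of the joint list 3 were called higher and none lower, with a median of 0.43 and 11 higher without overlap. The shares over all genes tested were 0.745% called higher and 13.6% higher without overlap. Without 6-month replicate 2 14 of the 27 were called higher, against 4.35% of all genes tested. Ndrg1, a growth-arrest gene induced by hypoxia, stood at 56.9, 42.8 and 29.2 against 7.01, 3.79 and 5.496 TPM (2.47 ± 0.58, adjusted p = 0.0267). Egln3, an oxygen-sensing prolyl hydroxylase, stood at 88.4, 69.05 and 55.4 against 19.5, 10.8 and 24.9 TPM (1.64 ± 0.40, adjusted p = 0.0302). Pdk1, which keeps pyruvate out of mitochondria, stood at 154, 145 and 122 against 79.6, 15.6 and 51.8 TPM (1.47 ± 0.26, adjusted p = 0.00442). All 3 separated the ages. Adm (2.13 ± 0.61, adjusted p = 0.0636), Bnip3 (1.23 ± 0.33, adjusted p = 0.0507) and Vegfa (1.11 ± 0.34, adjusted p = 0.0853) did so too but were not called. Gapdh (0.11 ± 0.23), Ldha (-0.02 ± 0.26) and Pkm (-0.25 ± 0.22) overlapped. The calls of Ndrg1 and Egln3 were lost without 6-month replicate 4 (adjusted p = 0.6996 and 0.6996) or replicate 1 (0.0853 and 0.106), and that of Pdk1 without replicate 4 (0.474). Over their alternatives adjusted p ran 3.60e-07 to 0.6996, 3.13e-06 to 0.6996 and 4.07e-05 to 0.474.

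**Figure D2:**
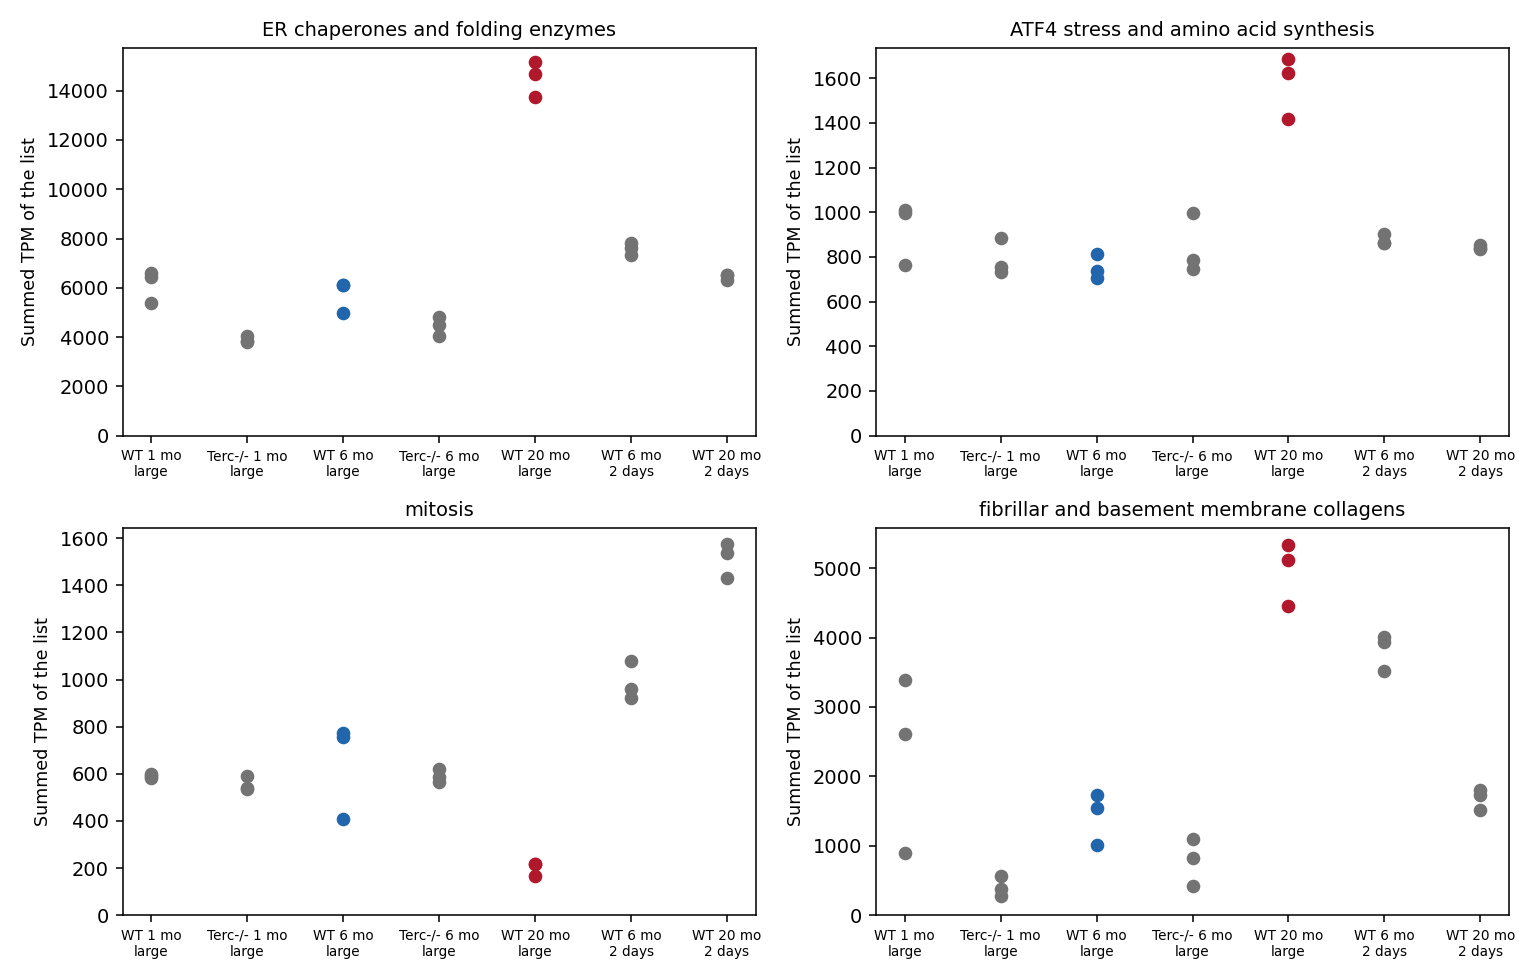
Summed TPM of 4 gene lists in the 7 groups without further words in their titles, one point per library, 3 per group, axes from 0. Red marks the 20-month and blue the 6-month large-cell wild-type libraries; the ER and ATF4 sums of the red points exceed all others, and their mitosis sums lie below all others.

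Set beside the other groups, the 20-month large-cell libraries were the outlying ones for these lists. The ER sum was 5403 to 6596 TPM in 1-month wild-type, 3810.0 to 4044 in 1-month Terc-/- and 4051 to 4823 in 6-month Terc-/- large cells. At 2 days it was 6299 to 6524 TPM at 20 months and 7329 to 7834 TPM at 6 months. The ATF4 sum was 762 to 1011 TPM in 1-month wild-type large cells and 836 to 851 TPM in 20-month cultures at 2 days. No library of the other 6 groups plotted reached the lowest 20-month large-cell value of either list.

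Genes of cell division were lower at 20 months. Of 28 mitosis genes 20 were called lower and none higher. All 28 differences were negative, with a median of -1.65, and 21 had groups without overlap against 8.74% of all genes tested in that direction. The list sum as deposited was 217, 165 and 218 TPM at 20 months against 755, 408 and 774 TPM at 6 months. Unscaled, 6-month replicate 2 thus lay between its own group and the 20-month one. Its scaling factor was 0.674 against 1.20 and 1.06 in replicates 1 and 4, so this place is not read as a difference in mitosis genes. Birc5 (chr11:117849251-117855743), the survivin subunit of the chromosomal passenger complex, stood at 10.9, 8.27 and 9.44 against 42.3, 60.04 and 48.9 TPM (-2.57 ± 0.48, adjusted p = 0.00518). Aurka (chr2:172356190-172370535), the spindle pole kinase, stood at 5.18, 4.35 and 7.02 against 26.4, 14.3 and 31.03 TPM (-2.15 ± 0.33, adjusted p = 9.28e-04). Cenpa, the centromeric histone, stood at 10.4, 9.51 and 11.3 against 32.3, 41.4 and 35.5 TPM (-2.002 ± 0.40, adjusted p = 0.00977). In all 3 every 20-month value lay below every 6-month value.

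Ube2c, the E2 enzyme of the anaphase-promoting complex, stood at 14.5, 10.5 and 14.4 against 52.3, 46.1 and 70.3 TPM (-2.30 ± 0.49, adjusted p = 0.0139). Cdc20, which activates that complex, had a difference of -2.14 ± 0.47, the mitotic kinase Cdk1 one of -1.49 ± 0.30 (37.2, 38.3 and 37.01 against 110.2, 50.3 and 118 TPM) and the proliferation marker Mki67 one of -1.66 ± 0.42. All were called lower. Outside the list, Tacc3, a spindle protein (10.3, 6.08 and 11.8 against 30.7, 52.9 and 37.9 TPM, -2.29 ± 0.45, adjusted p = 0.00865), and Cdkn3, a phosphatase of Cdk1 (-2.26 ± 0.58, adjusted p = 0.0384), were among the 12 largest falls. Cep85, a centrosomal gene, fell too (134, 104 and 136 against 384, 1003 and 332 TPM, -2.33 ± 0.55, adjusted p = 0.0274). The calls of Tacc3, Cdkn3 and Cep85 were lost without 6-month replicate 4 (adjusted p = 0.627, 0.6996 and 0.643), the last 2 also without replicate 1 (0.0875 and 0.0592) and Cdkn3 without 20-month replicate 3 (0.0581). With TPM as deposited the 3 were not called either (0.0554, 0.147 and 0.127), nor Tacc3 and Cep85 when only the 6 libraries compared were fitted with one variance (0.0757 and 0.149). Their ranges over the alternatives were 3.89e-06 to 0.627, 2.27e-05 to 0.6996 and 2.28e-04 to 0.643. Without 6-month replicate 4 no mitosis gene was called (limma, 21 with an unadjusted p below 0.05), and without replicate 1 the number was 3. With TPM as deposited 2 of the 28 were called and the median was -1.39.

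The promoters of Ube2c and Cdc20 are shown for the cell cycle homology region, TTTGAA on either strand, through which cell cycle genes are repressed outside G2 and M phase.
Ube2c, chr2:164769679-164769928, plus strand: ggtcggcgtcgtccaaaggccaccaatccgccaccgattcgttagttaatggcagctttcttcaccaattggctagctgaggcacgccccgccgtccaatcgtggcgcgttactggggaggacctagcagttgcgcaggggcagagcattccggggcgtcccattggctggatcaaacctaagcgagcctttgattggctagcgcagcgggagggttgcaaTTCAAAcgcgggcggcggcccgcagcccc
Cdc20, chr4:118437344-118437593, minus strand: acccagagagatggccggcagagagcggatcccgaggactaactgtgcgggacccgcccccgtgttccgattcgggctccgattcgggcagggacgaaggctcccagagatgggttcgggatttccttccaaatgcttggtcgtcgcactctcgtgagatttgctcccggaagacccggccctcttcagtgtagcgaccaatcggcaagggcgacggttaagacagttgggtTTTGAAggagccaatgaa
It lay 29 bases before the start in Ube2c and 18 in Cdc20, in 8 of the 24 mitosis genes with a promoter and in 7 of the 16 of these that were called. Such a short word is in 15.99% of all promoters of this length.

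DNA replication genes were lower as well. Of 28, 11 were called lower and none higher, all 28 differences were negative, the median was -1.03 and 20 had groups without overlap. Over all genes tested 1.25% were called lower and 8.74% were lower without overlap. Rrm2 (chr12:24708241-24714146), the regulated subunit of ribonucleotide reductase, stood at 10.6, 8.38 and 11.3 against 40.3, 25.8 and 46.2 TPM (-2.05 ± 0.31, adjusted p = 7.15e-04). Tyms, thymidylate synthase, stood at 13.3, 9.33 and 14.5 against 31.2, 25.4 and 43.95 TPM (-1.64 ± 0.34, adjusted p = 0.0111). The flap endonuclease Fen1 stood at 12.3, 10.2 and 12.9 against 28.6, 25.5 and 28.03 TPM (-1.44 ± 0.27, adjusted p = 0.00644), and the primase gene Prim1 at 3.73, 2.94 and 3.95 against 11.5, 8.58 and 14.2 (-1.68 ± 0.35, adjusted p = 0.0127). In all 4 the ages were apart. Pcna, the sliding clamp, missed the threshold (84.7, 77.5 and 79.7 against 135, 97.2 and 145 TPM, -0.92 ± 0.25, adjusted p = 0.0533). The G1 genes Ccne2 (-0.08 ± 0.70) and E2f1 (-0.40 ± 0.24) overlapped. The number called was 0 without 6-month replicate 4 (limma, 14 with an unadjusted p below 0.05), 4 without replicate 1, 23 without replicate 2 and 1 with TPM as deposited. The fit without replicate 2 called 6.32% of all genes tested lower.

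**Figure D3:**
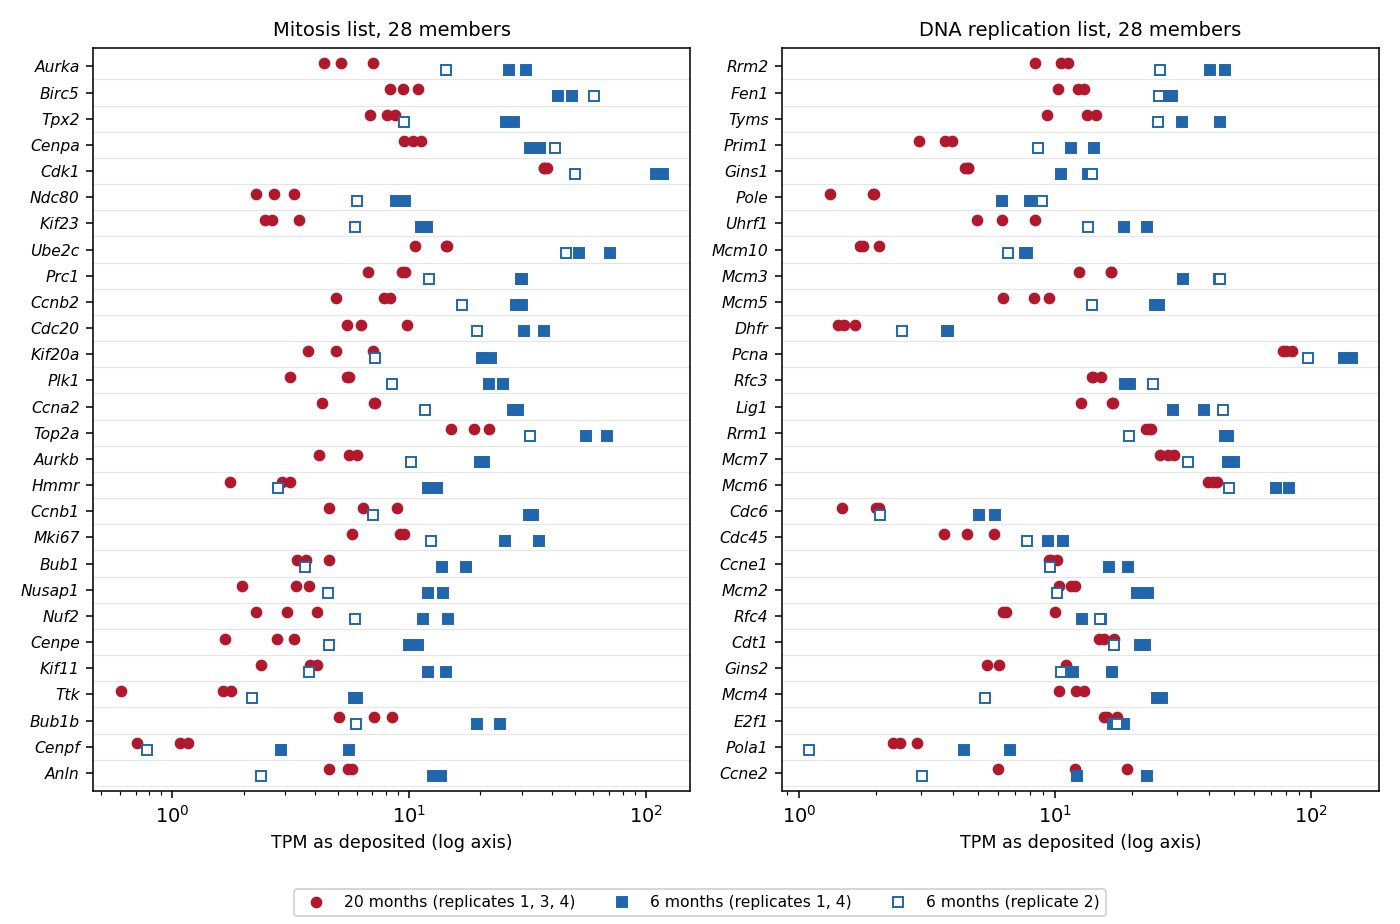
TPM as deposited, on a log axis, of mitosis and DNA replication genes in the 6 large-cell libraries, marked as in the plot of ER genes. In most genes the 20-month points lie to the left of all 6-month ones (21 of 28 mitosis and 20 of 28 replication genes, also when scaled). Of the 6-month points as plotted, without scaling, replicate 2 (open squares) is nearest to the 20-month ones in most mitosis genes.

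The genes that define the osteoclast were not called in either direction with all 6 libraries. This holds for all 4 secreted enzymes, 24 genes of acid secretion, 16 of fusion, 18 receptors and adaptors, 20 transcription factors, 28 podosome and integrin genes and 14 coupling factors (limma; of the 123 genes together 13 had an unadjusted p below 0.05 and were higher, and 6 lower). Without 6-month replicate 2 the lists held some calls: 1 secreted enzyme, 1 fusion gene, 3 receptors or adaptors, 1 podosome or integrin gene and 2 coupling factors higher, and 2 fusion genes, 1 receptor or adaptor and 1 transcription factor lower. In that setting 4.35% of all genes tested were called higher and 6.32% lower, so nothing is read from these few calls. Acp5 stood at 7623, 12058 and 7908 TPM at 20 months and 5679.9, 4668 and 4553 TPM at 6 months (0.55 ± 0.61, adjusted p = 0.642). Ctsk, the collagen-cleaving cathepsin K, stood at 7791, 11089 and 6510.4 against 6064, 2469 and 3822 TPM (0.79 ± 0.56, adjusted p = 0.448). As deposited both were higher in every 20-month library, but scaled levels of Acp5 overlapped. Mmp9 stood at 3147, 3809.5 and 2901 against 2058, 1940.3 and 1714 TPM, higher in every 20-month library as deposited and overlapping when scaled (0.47 ± 0.67, adjusted p = 0.729).

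The proton pump subunit Tcirg1 (554, 715 and 614 against 703, 960.0 and 500.2 TPM, -0.47 ± 0.32, adjusted p = 0.432) and its chloride partner Clcn7 (170.4, 205 and 160.3 against 185, 65.3 and 85.1 TPM, 0.50 ± 0.35, adjusted p = 0.441) overlapped. So did the pump subunit Atp6v0d2 (366, 509 and 335 against 388, 152 and 253 TPM, 0.37 ± 0.54, adjusted p = 0.7302). The fusion genes Dcstamp (81.5, 93.7 and 62.6 against 126, 52.7 and 79.7 TPM, -0.35 ± 0.64, adjusted p = 0.792) and Ocstamp (-0.01 ± 0.48, adjusted p = 0.997) overlapped too. Receptor genes gave the same picture for the RANK gene Tnfrsf11a (0.35 ± 0.41, adjusted p = 0.659) and the M-CSF receptor Csf1r (0.36 ± 0.23, adjusted p = 0.407). Oscar, a costimulatory receptor for collagen, stood at 119, 175 and 112 against 64.5, 26.9 and 40.5 TPM without overlap and was not called (1.35 ± 0.53, adjusted p = 0.166). It was called without 6-month replicate 2 (adjusted p = 0.0189, 0.00166 to 0.771 over its alternatives). The master transcription factor Nfatc1 overlapped at 71.1, 87.1 and 66.8 against 69.5, 21.7 and 54.5 TPM (0.46 ± 0.34, adjusted p = 0.472). A missed threshold does not show that these levels were equal, and the SE of the 12 genes plotted ran from 0.23 to 0.67.

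**Figure D4:**
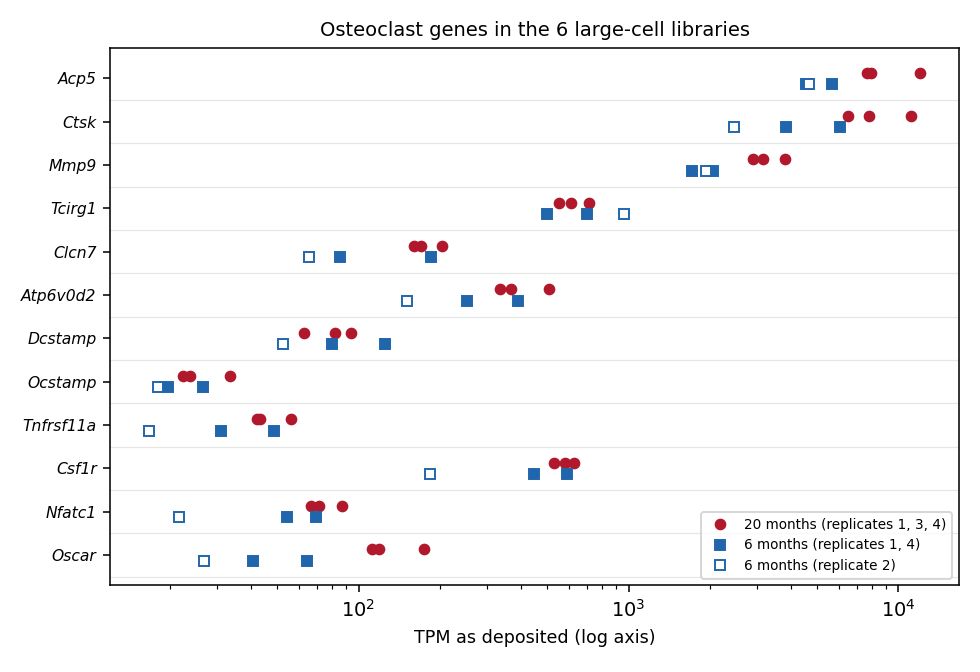
TPM as deposited, on a log axis, of 12 osteoclast genes in the 6 large-cell libraries, one point per library. Acp5, Ctsk, Mmp9 and Oscar are higher in every 20-month library (red) than in any 6-month one (blue), while the other genes overlap; none of the 12 was called.

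Among negative regulators of osteoclast formation, 1 of 18 was called. Id1, an inhibitor of helix-loop-helix transcription factors, stood at 3.61, 6.01 and 4.15 against 13.5, 30.5 and 26.9 TPM (-2.35 ± 0.59, adjusted p = 0.0349), lower in every 20-month library. Its call was lost without 6-month replicate 4 (adjusted p = 0.6996) or replicate 1 (0.0592), with 7.08e-05 to 0.6996 over the alternatives. The list median was -0.04.

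Matrix genes had mostly positive differences, few of them called unless 6-month replicate 2 was left out. Of 20 collagens 2 were called higher and none lower, the median was 0.93 and 14 were higher without overlap. Over all genes tested 0.745% were called higher and 13.6% were higher without overlap. Collagen VI forms beaded filaments in the pericellular matrix. Its called chain genes both separated the ages. Col6a1 (chr10:76708792-76726168) stood at 30.5, 29.8 and 38.4 against 10.4, 1.73 and 3.697 TPM (2.42 ± 0.58, adjusted p = 0.0286), and Col6a2 (chr10:76595762-76623630) at 9.42, 10.8 and 13.8 against 2.105, 0.115 and 0.523 TPM (2.64 ± 0.44, adjusted p = 0.00231). Col1a1, the main chain of bone collagen, stood at 1634, 1325 and 1511 against 402, 272 and 332 TPM and was not called (1.85 ± 0.64, adjusted p = 0.126), though its groups did not overlap. It passed without 6-month replicate 2 (adjusted p = 0.00386, 7.76e-04 to 0.751 over the alternatives). The collagen sum was 5333, 4462 and 5119 TPM against 1730.1, 1013 and 1548 TPM. Without 6-month replicate 2 8 of the 20 were called higher, against 4.35% of all genes tested. In 1-month wild-type large cells the sum spread over 895 to 3391 TPM.

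Markers of stromal cells and osteoblasts were present in these cultures, and their part in the matrix differences was not tested. None of 14 tested (of 24 listed) was called (limma, 3 with an unadjusted p below 0.05), with a median of 0.22. Of the 14 differences 9 were positive and 5 negative, from -1.78 to 1.10. Without overlap 4 genes were higher and 2 lower (13.6% and 8.74% of all genes tested). The 3 genes given next are among the positive ones. The mesenchymal receptor Pdgfrb stood at 49.6, 42.1 and 49.8 against 34.6, 20.5 and 37.2 TPM (0.34 ± 0.45) and Prrx1, a mesenchymal homeobox gene, at 26.2, 20.2 and 26.3 against 15.5, 4.01 and 12.5 TPM (1.00 ± 0.52). Cdh11, a stromal cadherin, stood at 99.3, 70.4 and 99.1 against 56.6, 10.2 and 59.3 TPM (1.10 ± 0.51). In all 3 the 6-month replicate 2 was the lowest library. The osteoblast genes Sp7, Alpl, Bglap and Dmp1 were at or below 0.310 TPM in all 6, and the list sum, mostly Spp1, was 6599 to 8339.6 against 7851 to 12769.7 TPM.

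Other matrix groups held 1 call each or none. Of 21 genes that process collagen, P4ha2, a collagen prolyl hydroxylase, was called (378, 389.9 and 285 against 96.2, 71.5 and 107 TPM, 1.62 ± 0.42, adjusted p = 0.0426), with a median of 0.61 and 15 without overlap. None of 21 proteoglycan and matricellular genes was called (limma, 5 with an unadjusted p below 0.05), with a median of 1.01 and 16 without overlap. In both lists these were higher at 20 months, as were 13.6% of all genes tested without overlap. Thbs2, a thrombospondin, had the largest difference of the proteoglycan and matricellular list (314, 246 and 303 against 76.4, 16.5 and 32.8 TPM, 2.70 ± 0.75, adjusted p = 0.0571). The aggrecanase Adamts4 rose (72.9, 56.001 and 44.5 against 12.9, 4.47 and 7.51 TPM, 2.45 ± 0.56, adjusted p = 0.0233), 1 call among 24 proteases and inhibitors. Itga11, a collagen-binding integrin, rose (42.1, 22.3 and 42.98 against 5.67, 3.47 and 3.99 TPM, 2.45 ± 0.57, adjusted p = 0.0252) within a contractile list of 17 whose median was -0.15, or 0.16 with TPM as deposited. Lama1, a basement membrane laminin, rose from under 1 TPM (10.6, 5.19 and 11.04 against 0.403, 0.2095 and 0.209 TPM, 2.69 ± 0.39, adjusted p = 6.09e-04). Inhbb, the activin B chain, rose as 1 of 20 TGF-beta, BMP and activin genes (4.86, 4.36 and 4.85 against 1.17, 0.533 and 0.618 TPM, 1.48 ± 0.35, adjusted p = 0.02599).

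Without 6-month replicate 2 the calls were more, as they were over all genes tested (4.35% higher and 6.32% lower). Called higher were then 7 of 21 collagen processing genes, 7 of 21 proteoglycan and matricellular genes and 6 of 24 proteases and inhibitors (2 were lower). So were 3 of 17 contractile genes and 4 of 20 TGF-beta, BMP and activin genes. All 7 matrix calls (Col6a1, Col6a2, P4ha2, Adamts4, Itga11, Lama1 and Inhbb) were lost without 6-month replicate 4, at adjusted p of 0.451 (Lama1) to 0.6996 (P4ha2). Those of Col6a1 (0.0592), P4ha2 (0.138), Adamts4 (0.0691), Itga11 (0.0836) and Inhbb (0.0812) were lost without replicate 1 too. P4ha2 was also lost without 20-month replicate 1 (0.0578), 20-month replicate 3 (0.06604) or 2-day 20-month replicate 2 (0.0505). Their ranges over the alternatives were 2.94e-05 to 0.6996, 1.66e-07 to 0.627, 1.21e-05 to 0.6996, 6.65e-06 to 0.6996, 4.90e-06 to 0.6996, 8.79e-11 to 0.451 and 1.29e-05 to 0.6996 in that order.

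The monocyte chemokine genes Ccl2 and Ccl12 fell. Of 24 chemokines and receptors 2 were called lower and none higher, with a median of -0.75 and 6 positive differences. Ccl2, which recruits monocytes through CCR2, stood at 36.5, 13.8 and 23.7 against 106, 127 and 139 TPM (-2.67 ± 0.65, adjusted p = 0.0304), and its neighbour Ccl12 at 14.002, 7.55 and 7.61 against 39.4, 76.2 and 61.1 TPM (-2.77 ± 0.53, adjusted p = 0.00662). Both were lower in every 20-month library. Ccl3 (-2.20 ± 0.89, adjusted p = 0.1803) and Cxcl2 (-2.07 ± 0.85, adjusted p = 0.184) were not called. Without 6-month replicate 4 neither call held (adjusted p = 0.6996 and 0.627), and without replicate 1 that of Ccl2 was lost (0.0786). Ccl2 was not called with TPM as deposited either (0.131), nor Ccl12 when only the 6 libraries compared were fitted with one variance (0.05798), with 3.08e-06 to 0.6996 and 2.67e-06 to 0.627 over the alternatives.

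MHC class II genes, which present antigen on macrophages and dendritic cells, leaned the same way. Of 11, 8 were lower without overlap (8.74% of all genes tested), with a median of -1.19, and 1 was called. That was H2-DMa, which loads peptides (14.7, 9.44 and 11.1 against 26.6, 24.4 and 24.9 TPM, -1.36 ± 0.32, adjusted p = 0.0274, 0.6996 without 6-month replicate 4, 0.0746 without replicate 1, 9.15e-06 to 0.6996 over the alternatives). The invariant chain Cd74 stood at 202, 67.4 and 86.1 against 357, 523 and 325 TPM (-2.20 ± 0.76, adjusted p = 0.122). Of 34 interferon genes, Ifi44 was called higher (26.4, 23.6 and 27.4 against 6.57, 2.82 and 3.66 TPM, 2.11 ± 0.39, adjusted p = 0.00477, 0.643 without replicate 4, 1.90e-07 to 0.643 over the alternatives), and the median was 0.10. Macrophage markers were called in no case among 18 tested (limma, 3 with an unadjusted p below 0.05), with a median of -0.26.

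Iron exporter and ferritin transcripts fell, and a reductase rose. Ferroportin, the iron exporter Slc40a1, stood at 5.67, 4.16 and 5.96 against 29.1, 7.39 and 14.2 TPM (-1.59 ± 0.32, adjusted p = 0.0107). The ferritin light chain Ftl1 stood at 9064, 7957 and 9742 against 12594, 21048 and 15115 TPM (-1.15 ± 0.30, adjusted p = 0.0409), with 6-month replicate 2 far above the others. Steap4, a metalloreductase, stood at 8.202, 13.4 and 11.3 against 5.12, 0.173 and 2.66 TPM (1.83 ± 0.43, adjusted p = 0.0252). These 3 were the calls among 13 iron genes, and all were lost without 6-month replicate 4 (adjusted p = 0.627, 0.6996 and 0.6996). Slc40a1 was lost without replicate 1 as well (0.0913). Ftl1 was lost without 20-month replicate 1 (0.0501) or 3 (0.0637) and without any 2-day 20-month library (0.0507, 0.0506 and 0.0502). Over the alternatives adjusted p ran 3.21e-06 to 0.627, 0.00259 to 0.6996 and 2.48e-04 to 0.6996. Heme oxygenase, Hmox1, was not called (-1.16 ± 0.33, adjusted p = 0.0668).

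Imprinted growth genes split. H19, a noncoding RNA expressed from the maternal allele, stood at 62.7, 50.1 and 56.9 against 4.21, 9.25 and 13.02 TPM (2.35 ± 0.57, adjusted p = 0.0306), and Grb10, an insulin receptor adaptor, at 41.03, 38.04 and 45.5 against 20.7, 5.03 and 8.06 TPM (1.72 ± 0.35, adjusted p = 0.0111). Cdkn1c, a CDK inhibitor, stood at 1.79, 1.71 and 1.62 against 3.74, 5.78 and 5.02 TPM (-1.32 ± 0.31, adjusted p = 0.0247). None of the 3 overlapped between the ages, and 7 other imprinted genes were not called. Without 6-month replicate 4 the 3 calls were lost (adjusted p = 0.6996, 0.6996 and 0.6996), and without replicate 1 that of H19 (0.165), with 2.35e-05 to 0.6996, 1.36e-05 to 0.6996 and 4.68e-05 to 0.6996 over the alternatives. H19 shares its exon with a microRNA gene, so its level includes that host transcript.

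Genes linked to ageing, namely cell cycle inhibitors, p53 targets, DNA repair and telomere maintenance, showed few calls. Cdkn1a, which encodes p21, overlapped at 307, 233 and 248 against 234, 165 and 257 TPM (-0.03 ± 0.21, adjusted p = 0.955), as did the p16 and p19ARF gene Cdkn2a at 78.8, 62.9 and 85.5 against 58.5, 109.5 and 77.8 TPM (-0.39 ± 0.41, adjusted p = 0.625). The 21 inhibitors and senescence genes held 3 calls, all lower: Cdkn1c, Ccl2 and the chromatin protein gene Hmgb2 (21.5, 17.8 and 20.4 against 50.003, 29.9 and 45.6 TPM, -1.30 ± 0.30, adjusted p = 0.0248, 0.6996 without 6-month replicate 4, 0.0818 without replicate 1, 4.01e-06 to 0.6996 over the alternatives). Cdkn1c restrains division, Ccl2 is secreted and Hmgb2 is abundant in dividing cells. The list median was -0.26, or 0.05 with TPM as deposited. None of 24 p53 targets (median 0.05, 5 with an unadjusted p below 0.05), 27 DNA repair genes (median -0.17, or 0.10 as deposited; 2) or 16 telomerase and shelterin genes (median -0.30; 3) was called by limma. Tert read 1.102, 0.4497 and 0.879 TPM against 0.468, 0.218 and 0.366 and was too low to be tested.

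Respiratory chain genes leaned lower at 20 months, and the size of their differences moved with 1 library. Without overlap 17 of 37 complex I genes and 20 of 37 of complexes II to V were lower (8.74% of all genes tested). All 37 complex I genes had negative differences with a median of -0.77, none called (limma, 26 with an unadjusted p below 0.05), and the sum was 5290.4, 5632 and 5206 TPM against 5939.8, 11058 and 6302 TPM. The median became -0.25 without 6-month replicate 2, the library with the highest sum. For 37 genes of complexes II to V it was -0.74, or -0.30 without that library. Without it 6.32% of all genes tested were called lower, among them 2 of 37 complex I genes and 6 of 37 of complexes II to V. Among the latter group, with all 6 libraries, the ATP synthase genes Atp5b (795, 869 and 792 against 1042, 2418 and 1157 TPM, -1.12 ± 0.29, adjusted p = 0.04095) and Atp5k (245, 217 and 209 against 352, 1067 and 392 TPM, -1.55 ± 0.41, adjusted p = 0.0452) were called lower. Their calls were lost without 6-month replicate 4 (0.627 and 0.6996) and without 20-month replicate 4 (0.0527 and 0.0573). Atp5b was lost without 20-month replicate 1 (0.0575) and 2-day 20-month replicates 2 (0.0505) and 3 (0.0505). Atp5k was lost without 6-month replicate 1 (0.0513), 20-month replicate 3 (0.0608), 2-day 20-month replicate 2 (0.0507) and 2-day 6-month replicates 1 (0.0527) and 2 (0.0519). The ranges over all alternatives were 0.00733 to 0.627 and 0.003895 to 0.6996. The 13 mitochondrially encoded genes summed to 85889, 100808 and 86775 TPM against 95658, 32979 and 88459 TPM, the same library lying lowest, with none called (limma, 1 with an unadjusted p below 0.05).

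Some of the largest changes fell outside the lists. Rpph1 (chr14:50807449-50807767), the RNA component of RNase P, fell most (4.02, 3.17 and 2.38 against 27.1, 127 and 85.99 TPM, -4.29 ± 0.91, adjusted p = 0.0146), with 6-month replicate 2 the highest. It lies on the strand and over an exon of Ccnb1ip1, so reads of the pair may be confused. Oligo-dT selection may also miss Rpph1, as it may Terc. The serotonin transporter Slc6a4 fell (0.674, 0.437 and 0.779 against 13.9, 4.97 and 17.5 TPM, -3.01 ± 0.40, adjusted p = 1.50e-04), as did Lce1g, a cornified envelope gene (1.09, 1.07 and 0.956 against 8.75, 22.5 and 15.3 TPM, -3.12 ± 0.58, adjusted p = 0.00518). All 3 were lower in every 20-month library. Without 6-month replicate 4 their calls were lost (adjusted p = 0.6996, 0.311 and 0.627), with 5.73e-06 to 0.6996, 7.92e-09 to 0.311 and 5.01e-06 to 0.627 over the alternatives.

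Ndufa4l2, a hypoxia-inducible mitochondrial gene, rose (35.4, 34.2 and 19.5 against 1.36, 3.91 and 2.399 TPM, 2.81 ± 0.60, adjusted p = 0.0143). So did Avil, an actin-severing villin relative (6.59, 11.3 and 9.19 against 0.591, 0.226 and 0.361 TPM, 2.61 ± 0.35, adjusted p = 1.50e-04), and the gap junction gene Gjb2 (16.8, 14.8 and 7.26 against 1.79, 1.46 and 0.3202 TPM, 2.39 ± 0.51, adjusted p = 0.0151). Medag, an adipogenesis gene, rose (2.05 ± 0.53, adjusted p = 0.0391), as did the pentraxin Ptx3 (2.15 ± 0.46, adjusted p = 0.0159) and the transcription factor Klf4 (1.51 ± 0.36, adjusted p = 0.0273). Every 20-month value of these 6 genes exceeded every 6-month one. Calls of all 6 were lost without 6-month replicate 4, at 0.6996, 0.223, 0.6996, 0.6996, 0.6996 and 0.6996. Those of Ndufa4l2 (0.0936), Gjb2 (0.0648), Medag (0.108), Ptx3 (0.0815) and Klf4 (0.0687) were lost without replicate 1 too, and that of Medag without 20-month replicate 3 (0.0581). Over the alternatives their adjusted p ran 8.32e-06 to 0.6996, 4.58e-11 to 0.223, 1.23e-06 to 0.6996, 5.81e-05 to 0.6996, 6.88e-07 to 0.6996 and 7.26e-06 to 0.6996. Avil and Ndufa4l2 overlap exons of Tsfm and Shmt2 on the opposite strand, and the counting is not stated to use strand.

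Settings other than single libraries ended calls too. With TPM as deposited 24 named calls were lost, among them, with their adjusted p, those of Ube2c (0.0923), Cenpa (0.0616), Fen1 (0.1004), Prim1 (0.139), Tyms (0.0938), Id1 (0.127), H2-DMa (0.219), Hmgb2 (0.225) and Cdkn1c (0.134). The same held for Ftl1 (0.109), Slc40a1 (0.167), Eif2s1 (0.392), Atp5b (0.174), Atp5k (0.128), Aldh1l2 (0.0689), Rpph1 (0.0592), Klf4 (0.0572) and Medag (0.08599). When only the 6 libraries compared were fitted, with one variance, 25 were lost, among them those of Trib3 (0.09199), Sel1l (0.06595), Syvn1 (0.0757), Stt3b (0.133), Pdk1 (0.147), H19 (0.0781), Grb10 (0.0727), Steap4 (0.178), Gjb2 (0.0674) and Ndufa4l2 (0.0537). Of the genes lost as deposited, Id1 (0.0885), H2-DMa (0.0694), Cdkn1c (0.122), Ftl1 (0.2904), Slc40a1 (0.0771), Eif2s1 (0.166), Atp5b (0.347), Atp5k (0.293), Rpph1 (0.0549) and Klf4 (0.0727) were lost there too. One variance per library ended 41 named calls, one variance per group in the 6 libraries alone 34, a fit of 7 groups 10, and a pseudocount of 0.1 ended 14.

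Leaving out 6-month replicate 2 raised the counts of several lists, as it did over all genes tested (4.35% called higher and 6.32% lower). Called higher were then 6 of 17 genes of ER-associated degradation, 3 of 12 sensors and factors of the unfolded protein response and 5 of 23 of ER translocation and glycosylation. Called lower were 5 of 24 chemokines and receptors (1 was higher) and 4 of 11 MHC class II genes. The same held for 3 of 18 negative regulators of osteoclast formation and 5 of 21 inhibitors and senescence genes (1 was higher).

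Whether the age difference depended on culture stage was tested as an interaction, the difference in large cells minus that at 2 days. It was called for 1724 genes (13.7%), 826 more positive (6.55%) and 898 more negative (7.12%) in large cells. At 2 days the age difference alone was called for 5105 genes (40.5%), 2542 higher (20.2%) and 2563 lower (20.3%). These 2-day groups share no library with the large-cell ones. Of the 252 genes called in large cells 223 had a called interaction, which contains the difference they were chosen on, so nothing is read from that share. At 2 days 68 of the 158 lower genes were called higher and 20 lower, and 35 of the 94 higher genes were called lower and 13 higher.

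The mitosis list ran in opposite directions at the 2 stages: 23 of 28 were called higher at 20 months at 2 days (median 0.55), and 26 had a called negative interaction. Its 2-day sums were 1429 to 1574 TPM at 20 months and 922 to 1079 TPM at 6 months. Birc5 stood at 76.8, 78.4 and 71.3 TPM at 20 months and 36.2, 40.1 and 46.7 TPM at 6 months at 2 days, with an interaction of -3.41 ± 0.51 (adjusted p = 2.10e-04). Of the 28 DNA replication genes 22 had a called negative interaction. Collagens ran the other way, with 14 of 20 called lower at 20 months at 2 days (median -1.16) and 14 with a called positive interaction. Col14a1, Col15a1 and Col18a1 were called higher at 2 days. The 2-day sums of the whole collagen list were 1521 to 1805 TPM at 20 months against 3514 to 4004 TPM at 6 months. Contractile and matricellular genes moved with the collagens at 2 days. All 17 contractile and myofibroblast genes were called lower at 20 months (6244 to 7533 against 17569 to 20156 TPM summed). So were 19 of 21 proteoglycan and matricellular genes (7464 to 8634 against 15073 to 16701 TPM). Of 14 stromal and osteoblast markers 4 were called higher and 3 lower there, with a median of -0.08. Their list sum, which in the large cells was mostly Spp1, was 9488 to 10416 against 6189 to 7247 TPM at 2 days. The part of stromal cells in the interaction was not tested. Col1a1 had an interaction of 3.20 ± 0.69 (adjusted p = 0.00383).

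Of 23 ER chaperone genes 13 were called lower at 20 months at 2 days, 2 (Sdf2l1 and Ero1lb) were called higher, and 18 had a called positive interaction, as did 13 of 23 ATF4 genes. Pdia4 had the values 167, 186 and 168 TPM at 20 months and 209, 214 and 198 TPM at 6 months at 2 days, and an interaction of 2.68 ± 0.27 (adjusted p = 2.34e-06). At 2 days, then, its ages differed far less than in large cells. Acp5 (2.87 ± 0.22) and Atp6v0d2 (2.73 ± 0.20) were called higher at 20 months at 2 days, differences that the large cells did not repeat. The interaction of Acp5 was -2.32 ± 0.65 (adjusted p = 0.0204), that of Atp6v0d2 -2.36 ± 0.58 (adjusted p = 0.00955), that of Dcstamp -2.54 ± 0.68 (adjusted p = 0.0166) and that of Tcirg1 -1.29 ± 0.34 (adjusted p = 0.0159). For Ctsk it was not called (-1.59 ± 0.60, adjusted p = 0.0752).

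Without 6-month large-cell replicate 4 the interaction was called for 27 genes, without replicate 1 for 1046 and without replicate 2 for 3226. Among the lists above it was then, without replicate 4, 7 of 23 ER chaperones, 1 DNA replication gene and no mitosis, collagen or ATF4 gene. The interactions of Acp5, Atp6v0d2, Dcstamp and Tcirg1 were lost (adjusted p = 0.268, 0.235, 0.266 and 0.161), the first 3 also without replicate 1 (0.0757, 0.0691 and 0.0885). Over their alternatives adjusted p ran 3.01e-04 to 0.268, 5.81e-05 to 0.235, 1.43e-04 to 0.266 and 0.00356 to 0.161.

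**Figure D5:**
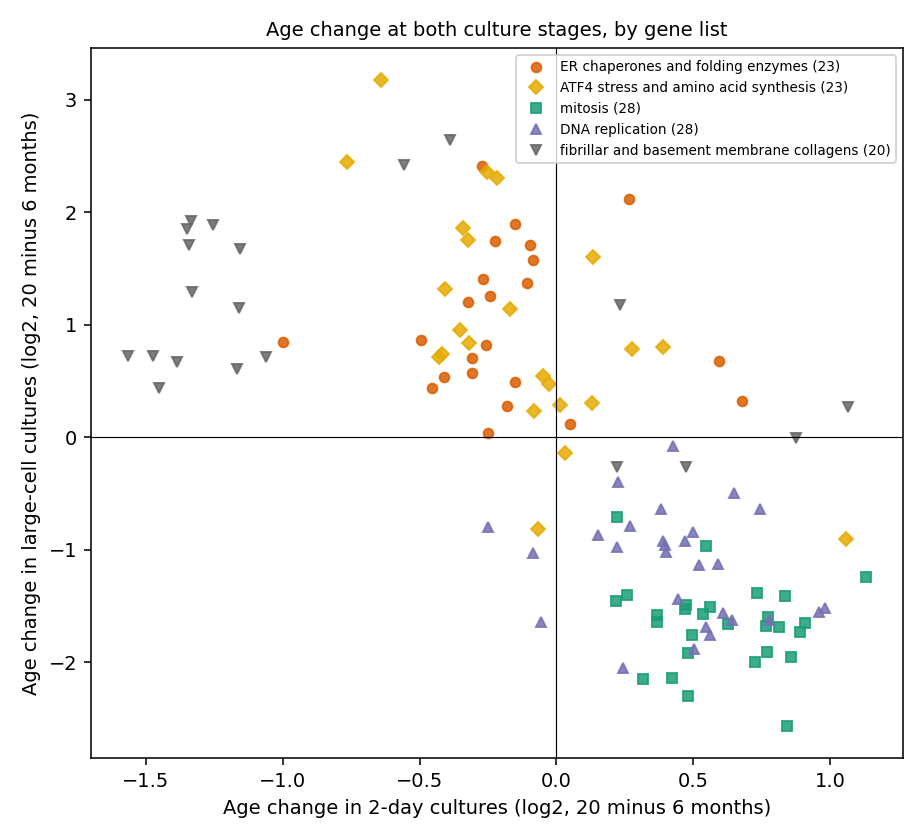
Log2 age difference (20 minus 6 months) in large-cell cultures (vertical) against that in 2-day cultures (horizontal), one point per gene of 5 lists, with lines at 0. Mitosis and DNA replication genes gather at the lower right, collagens at the upper left, and ER and ATF4 genes above the horizontal line near 0 on the horizontal axis.

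Markers of other cell types were scarce, apart from those above. None of their lists held a call, and the part of such cells in the results was not tested. Summed TPM of B and plasma cell genes were 4.38 to 14.6 at 20 months and 10.9 to 13.6 at 6 months, with Ighd, Mzb1 and Iglc1 at 0 in all 6. T and NK cell genes summed to 11.7 to 24.7 and 12.3 to 15.5 TPM, with Cd3g, Cd8a and Nkg7 at 0. Neutrophil genes summed to 11.4 to 35.3 and 29.5 to 73.03 TPM, with S100a9, Elane and Mpo at 0. The erythroid and megakaryocyte list summed to 474 to 631 and 1043 to 2464 TPM, nearly all of it the platelet factor gene Pf4 (-1.58 ± 0.59, adjusted p = 0.1504), with hemoglobin genes below 0.463 TPM. Dendritic (9.95 to 16.9 and 12.6 to 24.95 TPM), endothelial (11.97 to 16.2 and 12.4 to 18.4), adipocyte (41.96 to 44.8 and 64.7 to 90.8) and mast cell and basophil genes (27.02 to 36.3 and 6.94 to 16.7) stayed low.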

How the data were processed

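The deposited values are 5 tables of TPM for 45706 genes and 30 libraries made by the authors; the unit was read from the values, each column summing to 1000000. The submitters' processing notes name HTSeq and mm10, without versions; which aligner was used is not given here. Per the labels' protocols, RNA was enriched with oligo-dT beads and sequenced on an Illumina Novaseq instrument. Libraries were grouped by their titles, and 45143 identifiers matched GENCODE M21.

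Libraries were scaled to each other by a trimmed mean of log ratios, dropping 30% of the ratios and 5% of the levels from either tail, and log2(scaled TPM + 1) was modelled. A gene entered the test when its average over all 30 libraries reached 1 TPM, which 12614 did. A limma 3.58.1 model (R 4.3.3) with 10 group means, one variance per group and trended, robust moderation gave each contrast, called at a Benjamini-Hochberg adjusted p below 0.05. No count test was possible on TPM. The code was tested on simulated data.

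The comparison, the 54 gene lists (1080 entries, 3 unmatched) and the choice of one variance per group were made with earlier results of these data known, and 4 ER lists were added after the values were seen. Named genes are the 12 largest called rises and 12 largest falls with at least 5 TPM and no overlap, up to 4 called members per list, fixed osteoclast and ageing genes, and the 6 largest interactions each way. Others are named as list members or chosen after their values were seen. Of the 81 genes named by this rule 21 share exons with another annotated gene, 6 of them on the same strand (Rpph1, Pdia4, Hsp90b1, H19, Ftl1 and Medag), so their reads may be shared. Values of 2 of the 81 are not reported here, though totals include them. Alternatives were other scalings, pseudocounts, filters, variance models and groups, a replicate block, and leaving out each library.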

Additional observations from a re-analysis of the deposited data

Results flagged for a closer look

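The age difference in large cells differed from that at 2 days in the genes below (limma interaction, adjusted p below 0.05, called for 13.7% of all genes tested). They were chosen for the size of this value, so their number is no result. Of the 6 largest values in each direction, 11 are given here.

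Towards lower values at 20 months in large cells stood Ighm, the immunoglobulin mu chain (-4.81 ± 0.66, adjusted p = 1.00e-04), Cep85 (-3.90 ± 0.59, 2.71e-04), Slc6a4 (-3.84 ± 0.42, 6.72e-06), Rpph1 (-3.75 ± 0.97, 0.0139) and Birc5 (-3.41 ± 0.51, 2.10e-04). Ighm stood at 3.25, 0.879 and 2.59 TPM at 20 months and 9.56, 5.87 and 10.5 TPM at 6 months in large cells, against 12.7, 8.09 and 7.12 and 0, 0.07503 and 0.0779 TPM at 2 days. Its large-cell difference was not called (-1.84 ± 0.62, adjusted p = 0.112). The B and plasma cell list moved with it: at 2 days it summed to 133 to 170.3 TPM at 20 months and 3.31 to 10.99 TPM at 6 months, 6 of 7 genes were called higher (median 2.97) and 5 had a called negative interaction. The part of such cells was not tested.

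Towards higher values stood Itga11 (4.76 ± 0.61, adjusted p = 5.28e-05), Thbs2 (4.28 ± 0.80, 0.00151), Adamts4 (3.85 ± 0.60, 3.01e-04), Aldh1l2 (3.81 ± 0.82, 0.00408), Pappa, a protease of insulin-like growth factor binding proteins (3.54 ± 0.65, 0.00134), and Medag (3.41 ± 0.56, 5.15e-04). Pappa stood at 48.2, 38.7 and 48.3 TPM against 18.2, 2.75 and 8.48 TPM in large cells, where it was not called (2.11 ± 0.61, adjusted p = 0.0678), and at 10.8, 9.18 and 11.6 against 31.7, 30.7 and 26.9 TPM at 2 days. Medag stood at 29.6, 31.5 and 29.3 against 6.405, 3.27 and 6.39 TPM in large cells and 1.67, 1.96 and 3.83 against 9.37, 6.24 and 8.36 TPM at 2 days.

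Slc6a4, Cep85 and Itga11 kept a called interaction in all 24 alternatives (adjusted p 4.47e-09 to 0.0197, 3.16e-06 to 0.0427 and 7.36e-08 to 0.0427). Without 6-month large-cell replicate 4 the other 8 were no longer called: Birc5 had an adjusted p of 0.06098, Ighm 0.0538, Adamts4 0.08998, Medag 0.08998, Pappa 0.133, Thbs2 0.148, Aldh1l2 0.176 and Rpph1 0.27000, each the highest over its alternatives, whose lowest ran from 1.62e-08 (Ighm) to 9.81e-04 (Rpph1).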

How the results depend on the processing

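The calls were sensitive to how variance was modelled and to single 6-month libraries. All 252 genes kept their sign in every alternative, but they were chosen on these same libraries, so nothing is read from that. Main counts were 252 genes (94 higher, 158 lower), 1724 interactions, 12 ER chaperone and 6 ATF4 genes higher, and 20 mitosis and 11 replication genes lower. With one variance for all libraries 3495 genes were called (1562 higher, 1933 lower), 3178 interactions, 20 ER, 17 ATF4 and 25 replication genes. One variance per library, a fit that stopped before convergence, gave 46 (33 and 13), 1064 interactions, 7 mitosis genes and 1 replication gene. Fitting only the groups compared gave 162 genes with one variance (79 lower; 7 ER genes), 86 with one variance per group (54 and 32; 6 ER, 7 mitosis and 3 replication genes), and 967 with one variance and without 6-month replicate 2 (465 and 502; 3757 interactions, 14 ATF4 and 22 replication genes). With TPM as deposited the split turned to 77 higher and 29 lower (106 genes, 1011 interactions, 2 mitosis genes and 1 replication gene), the median of all genes tested having shifted by 0.27. No filter gave 549 genes (222 and 327) among more tested.

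Leaving out 1 library at a time, the total ran from 3 to 1346 genes, higher from 3 to 549, lower from 0 to 797, interactions from 27 to 3226, ER genes from 3 to 19, ATF4 from 0 to 16, mitosis from 0 to 28 and replication from 0 to 23. The lowest values were without 6-month replicate 4 and the highest without replicate 2. The cause was not tested. Median-of-ratios scaling, a filter on the libraries compared, a pseudocount of 0.1 and the 7 groups without further words in their titles kept all counts above within 1.5 times.

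Replicate numbers 1 and 4 occur at both ages, and same-numbered libraries did not deviate together (r = -0.07 and 0.07). With 3 libraries per group this cannot decide whether the numbers pair samples, and the labels do not say. A replicate block gave 403 genes (148 higher, 255 lower).

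Depth cannot be read from TPM, low genes carry unknown counting error, and 3 libraries per group limit every test. Age, batch and culture duration cannot be told apart, since large cells were taken by appearance.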

Other observations

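Several lists held few or no calls and add to the picture of the large cells. The 29 genes of cholesterol and fatty acid synthesis had a median log2 difference of -0.30 (or -0.01 with TPM as deposited). None of 30 lysosomal genes was called (limma, 8 with an unadjusted p below 0.05), with a median of 0.06. No gene was called among 14 Wnt genes (median 0.46; 4 with an unadjusted p below 0.05), 10 genes of the insulin-like growth factor system (median 0.58; 2), 20 cytokine and colony-stimulating factor genes (median -0.36; 5), 23 toll-like receptor and NF-kappaB genes (median -0.15, or 0.15 as deposited; 3), 16 MHC class I genes (median -0.00; 1) and 13 macrophage activation genes (median -0.40; 3), all by limma. Of 19 genes of lipid uptake and storage Vldlr was the only call, of 14 heat shock genes Hspa5, of 18 immediate early genes Klf4 and of 13 acute-phase genes Ptx3.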
